A study of Rattus norvegicus with 36 samples.

Results

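The collagen chains and the matrix genes of hepatic stellate cells were followed here through rat liver after short dosing with a flame retardant. Every probe set with a single platform symbol of the collagen form (Col, a number, the letter a, a number) was taken, together with 20 named matrix, contractile and signalling genes. Each gene was represented by its brightest probe set over all arrays. This gave 57 genes among the 14217 with a single symbol, of which 41 were collagen chains. Of the 20 named genes 19 had such a probe set, 3 of them collagens, and Thbs1 was not analysed here. The 57 genes had 80 probe sets, and 31 of the genes were at or above the median brightness of all probe sets, a log2 value of 5.09. These 31 held 17 of the 41 collagen chains and 17 of the 19 named genes, Fbln1 and Postn being the dim ones. The other 26 genes lay below that level, where an array separates signal from background poorly.

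Livers came from male Harlan Sprague Dawley rats that were 7 weeks old when the study began. They received TBPH (bis(2-ethylhexyl) tetrabromophthalate, a flame retardant built like a brominated phthalate plasticiser) in corn oil by gavage. Dosing lasted 5 days at 5 ml/kg, and RNA was made from the left lobe of the liver 1 day later. There were 6 arrays for the corn oil vehicle and 6 for each dose, namely 706, 70.6, 7.06, 0.71 and 0.07 mg/kg of TBPH, 36 in all, and the question was which liver transcripts the dose changes. The labels give replicate numbers and do not state that every array is its own animal. The p-values therefore reflect only how far these samples differ, which may be technical.

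Hepatic stellate cells lie between the hepatocytes and the sinusoidal endothelium and store vitamin A in healthy liver. When activated by injury they become contractile myofibroblasts that secrete fibrillar collagen, and in fibrosis they are the main source of scar. Portal fibroblasts, vascular smooth muscle and the cells of the capsule make many of the same proteins, so none of these genes marks a single cell type in whole liver. In bulk tissue, fewer cells of a type and less RNA per cell cannot be told apart.

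RefSeq promoter windows on build GRCr8, from 250 bases before to 50 after a start site, were on hand for 41 of the 57 genes. Tagln, Col1a1, Col3a1, Dcn, Lox and Mgp were among those without a window and were not searched. The 150 bases before the start are shown for Sparc, the member that followed Col3a1 most closely, for Lum, the member with the widest spread, and for Acta2, the classical marker of the activated cell. They run 5′ to 3′ on the gene's strand, in lower case. Capitals mark any match on either strand to the 5 motifs named below, the CArG box in its strict form.
Sparc, chr10:40038817-40038966, minus strand: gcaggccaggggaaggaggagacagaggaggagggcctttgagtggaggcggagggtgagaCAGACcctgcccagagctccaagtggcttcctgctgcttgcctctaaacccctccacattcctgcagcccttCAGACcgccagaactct
Lum, chr7:34245556-34245705, plus strand: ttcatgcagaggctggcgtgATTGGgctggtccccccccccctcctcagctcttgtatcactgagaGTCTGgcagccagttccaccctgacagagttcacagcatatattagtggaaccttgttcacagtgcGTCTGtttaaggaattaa
Acta2, chr1:241172504-241172653, minus strand: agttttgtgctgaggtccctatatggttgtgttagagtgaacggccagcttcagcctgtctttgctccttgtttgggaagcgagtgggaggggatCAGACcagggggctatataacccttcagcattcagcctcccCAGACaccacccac
Searched were the TATA box as TATAAA, the CCAAT box by that name, the GC box as GGGCGG, the core bound by SMAD factors as CAGAC, and the CArG box of serum response factor. The 3 stretches held 2, 3 and 2 matches marked by capitals, all to CAGAC except the first in Lum, which is CCAAT read on the other strand. CAGAC is common: it lay in 45.5% of the 44 windows of member genes and in 50.1% of all 33469 windows. GGGCGG lay in 47.7% of the member windows against 33.1% of all, CCAAT in 29.5% against 37.5%, and TATAAA in 11.4% against 14.2%. The CArG box, counted only in its strict form of CC, 6 bases of A or T, and GG, lay in 0 of the member windows and in 1.64% of all. With 1 of the inner bases other than A or T, it lay in 3 of the 44 member windows, 6.82%, those of Acta2, Col11a1 and Col23a1, and in 8.10% of all. This looser form is not marked by capitals, and the Acta2 stretch above holds it as ccctatatgg. A match is a string of letters in the window and says nothing of binding.

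Among the collagens, the brightest probe set was that of Col3a1, a fibrillar chain, with a mean log2 RMA value of 11.15 over the 36 arrays. Col1a2, the second chain of type I collagen, averaged 8.20, and Col1a1, its first chain, 6.13. The basement membrane chain Col18a1, whose C-terminal piece is endostatin, averaged 9.73. Levels of different genes cannot be ranked from these values, since each probe set binds with its own strength. For 19 genes there was more than 1 probe set. All 10 of the further probe sets at or above the median brightness followed the one used, with within-group correlations above 0.5, and 0 of the 13 dim ones did.

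No collagen or matrix gene passed the test against vehicle at any dose. In limma, with p-values adjusted by Benjamini-Hochberg across 31042 probe sets and a threshold of 0.05, 0 of the 57 genes passed at 706, 70.6, 7.06, 0.71 or 0.07 mg/kg, for a slope over dose rank or for any difference among the 6 groups. The background was the same, with 0% of all probe sets called in each of these comparisons. The lowest adjusted p of a member was 0.92 at 70.6 mg/kg and 0.9995 at 706 mg/kg. At an unadjusted p under 0.05, 2 of 57 members stood at 706 mg/kg, where 3.48% of all probe sets did. The count was 0 at 70.6 mg/kg against 5.24%, 2 at 7.06 mg/kg against 3.48%, and 0 at 0.07 mg/kg against 3.07%. For the slope it was 2 against 4.16%, and for any difference 0 against 2.54%. At 0.71 mg/kg it was 7 against 3.98%. These counts moved with single arrays. At 706 mg/kg the count was 5 without vehicle replicate 2, 1 without vehicle replicate 5 or 706 mg/kg replicate 1, 2 or 5, and 0 without vehicle replicate 6 or 706 mg/kg replicate 6. For the slope it was 0 without 706 mg/kg replicate 6 and 1 without 0.07 mg/kg replicate 6 or 70.6 mg/kg replicate 3. With any 1 array left out it reached at most 2 at 70.6 mg/kg and for any difference, 3 at 7.06 mg/kg and for the slope, and 1 at 0.07 mg/kg.

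None of the 57 genes had dosed arrays that all lay on one side of all vehicle arrays. Over all genes such separation was found in 0.148% at 706 mg/kg, 0.162% at 70.6, 0.218% at 7.06, 0.148% at 0.71 and 0.141% at 0.07 mg/kg. The median log2 difference over the members was 0.044 at 706 mg/kg, with 36 genes higher and 21 lower, against 0.006 over all genes. It was 0.0093 at 70.6 mg/kg, -0.018 at 7.06, 0.0996 at 0.71 and -0.015 at 0.07 mg/kg. Over all genes the median at these doses was 0.011, 0.0079, 0.0067 and 0.0026. The SD of the member median between vehicle arrays alone was 0.089. That is the spread of single arrays, not the error of a difference between group means. The share of variance that lay between groups had a median of 13.1% over members and 10.97% over all genes. All 5 doses were set against the same vehicle arrays, so their values are not independent of one another.

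**Figure D1:**
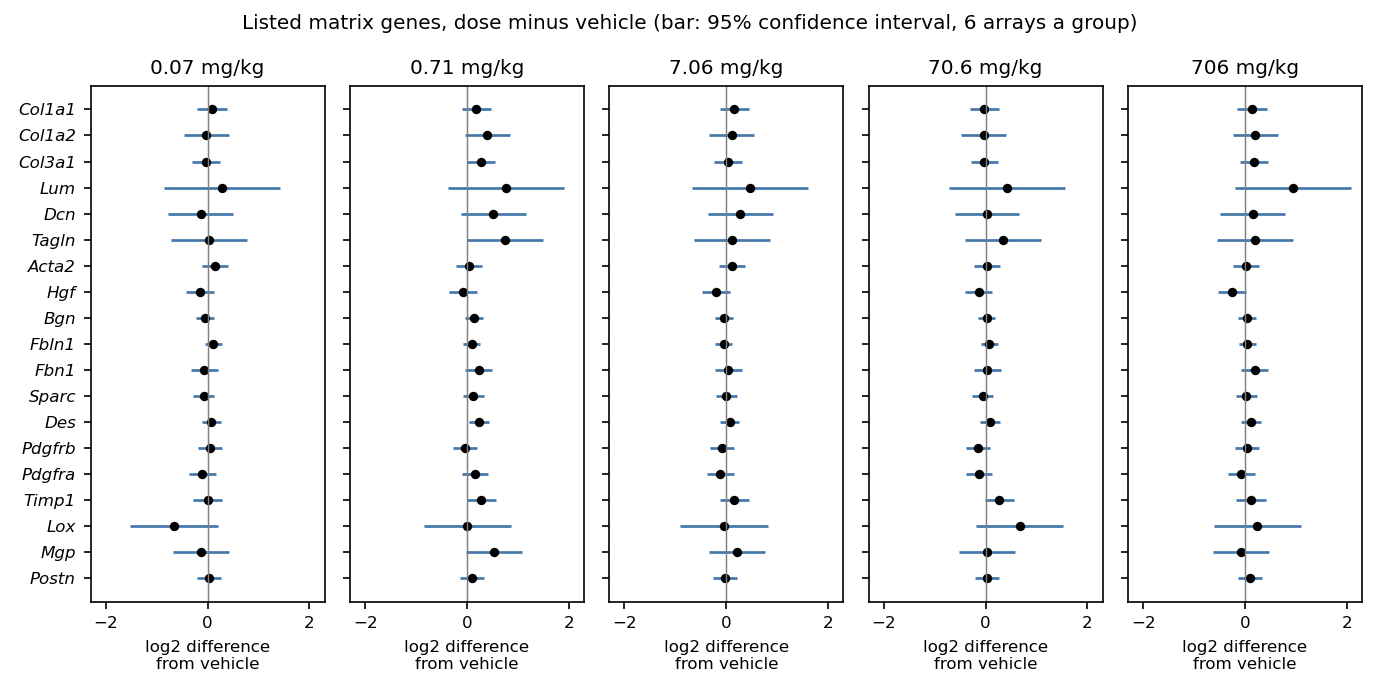
Log2 difference of each dose from vehicle (x axis) for the 19 named genes (y axis), 1 panel a dose; points are limma estimates, bars 95% confidence intervals, 6 arrays a group. Most points lie near 0 and the bars are longest for Lum, Lox, Tagln, Dcn and Mgp; the Lum estimate at 706 mg/kg is 0.95 with an interval from -0.19 to 2.09.

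Among the fibrillar collagens, Col3a1 and Col1a2 overlapped vehicle at every dose. Col3a1 had vehicle values from 10.63 to 11.55 with a median of 11.09. Its medians were 11.06 at 0.07 mg/kg (10.49 to 11.49), 11.35 at 0.71 (11.13 to 11.57) and 11.16 at 7.06 (10.69 to 11.39). They were 11.02 at 70.6 mg/kg (10.91 to 11.25) and 11.22 at 706 mg/kg (11.14 to 11.45). The highest 0.71 mg/kg value, 11.57, lay just above the highest vehicle value, 11.55, and every dosed group overlapped vehicle. Col1a2 in vehicle ran from 7.15 to 8.77 with a median of 8.20, and its group medians lay between 7.94 at 70.6 mg/kg and 8.44 at 0.71 mg/kg. Of 11 fibrillar chains, 6 were higher and 5 lower at 706 mg/kg, with 0 past the threshold. Among 7 basement membrane chains, 3 were higher and 4 lower at 706 mg/kg, again with 0 past it. Across all doses 0 of either list passed.

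The small leucine-rich proteoglycans, which bind collagen fibrils and set their width, held the member that varied most. Lum, which encodes lumican, had vehicle values from 4.33 to 7.40 with a median of 5.58. At 0.07 mg/kg it ran from 4.49 to 6.83 with a median of 5.95. At 0.71 mg/kg it ran from 4.54 to 8.44 with a median of 6.62. These groups covered most of the vehicle range. At 7.06 mg/kg it ran from 4.18 to 7.46 with a median of 5.87, and at 70.6 mg/kg from 5.00 to 7.29 with a median of 5.95. At 706 mg/kg it ran only from 5.95 to 7.03, around a median of 6.50, inside the vehicle range. The estimate of 0.95 at 706 mg/kg was the largest of the members' dose differences, with a standard error of 0.56 and an unadjusted p of 0.10 in limma. Dcn, which encodes decorin, had vehicle values from 5.06 to 7.55 with a median of 5.95, and from 6.00 to 6.56 with a median of 6.35 at 706 mg/kg. The 706 mg/kg values again lay inside the vehicle range. Bgn, biglycan, was steadier, with a mean of 8.97 ± 0.19 (SD, n = 6) in vehicle and 9.11 ± 0.073 (SD, n = 6) at 0.71 mg/kg. At every dose 0 of 9 measured proteoglycan genes and 0 of 23 matrix glycoprotein and elastic fibre genes passed the threshold.

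The lowest dose but 1, 0.71 mg/kg, had the largest share of members at a low unadjusted p. Des, the intermediate filament desmin, was 0.24 higher with a 95% interval from 0.05 to 0.44 and an unadjusted p of 0.016 in limma (adjusted 0.9998). Tagln, the smooth muscle actin-binding protein transgelin, was 0.75 higher (0.0059 to 1.49). Col3a1 was 0.28 higher, Col6a1, a chain of the beaded type VI filaments, 0.25 higher, and Col4a2, a basement membrane chain, 0.21 higher. The dim chains Col4a4 and Col17a1 stood at -0.21 and -0.13. None of the 7 passed the adjusted threshold, and their 12.3% of the members stands beside the 3.98% of all probe sets. The bright members vary together within groups, as described below, so their counts are not independent of each other.

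Further members at 0.71 mg/kg with differences above their standard errors were Timp1, the inhibitor of metalloproteinases, at 0.28 and Mgp, matrix Gla protein, at 0.53. Col1a2 stood at 0.40, Fbn1, the microfibril protein fibrillin, at 0.23, Dcn at 0.52 and Lum at 0.77. Smaller were Col1a1 at 0.19, Pdgfra at 0.16, Bgn at 0.13, Sparc at 0.13 and Fbln1 at 0.0996. The other 5 named genes lay between -0.085 and 0.10. Of the 31 bright members 27 were higher than vehicle, with a median of 0.17 against 0.018 over all genes as bright. Of those 9584 genes 5794 were higher. At 706 mg/kg 25 of the 31 were higher, with a median of 0.13 against 0.018, and 5775 of the 9584. At 7.06 mg/kg 23 were higher (0.056 against 0.022), at 70.6 mg/kg 21 (0.030 against 0.021) and at 0.07 mg/kg 14 (-0.029 against 0.0071).

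The count of 7 at 0.71 mg/kg moved most. It was 18 without vehicle replicate 2, 13 without 0.71 mg/kg replicate 4 and 11 without vehicle replicate 1. It was 2 without vehicle replicate 4 or vehicle replicate 6 and 3 without vehicle replicate 3, 0.71 mg/kg replicate 1 or 0.71 mg/kg replicate 3. Without replicate 5 of that dose it was 4, and without replicate 6 it was 5. Replicate 6 at 0.71 mg/kg was the highest of all 36 arrays for 9 of the 31 bright members, Lum, Tagln, Mgp and Col1a2 among them. In that array 4 of 6 smooth muscle markers exceeded all other arrays. Actg2, the enteric and vascular smooth muscle actin, was at 5.75 there against 2.62 to 3.39 in the other 35. Myh11, smooth muscle myosin, was at 6.69 against 4.93 to 5.75, and Cnn1, calponin, at 5.19 against 3.52 to 4.36. The mean of these 6 markers ran from 4.92 to 6.38 at 0.71 mg/kg and from 4.86 to 5.35 in vehicle. The part of smooth muscle RNA in the difference was not tested.

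Contractile genes as a list gave 0 of 12 past the threshold at every dose. At 0.71 mg/kg 11 of 12 were higher with a median of 0.25, and 4, namely Des, Actg2, Cnn1 and Tagln, had an unadjusted p under 0.05, where 3.98% of all probe sets did. All 4 were highest of all arrays in replicate 6 of that dose. Without that array 10 of 12 were higher and the median was 0.11, with Des at 0.14, Actg2 at 0.18, Cnn1 at 0.093 and Tagln at 0.55. For Acta2, the smooth muscle actin of activated stellate cells, the median was 5.42 in vehicle (5.28 to 5.80), 5.45 at 0.71 mg/kg (5.21 to 6.02) and 5.50 at 706 mg/kg (5.26 to 5.68), and the groups overlapped throughout. Its difference at 0.07 mg/kg was 0.15, above its standard error of 0.13.

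Among signals and their receptors, Hgf, the hepatocyte growth factor that stellate cells supply to hepatocytes, had vehicle values from 5.22 to 5.85 with a median of 5.44. At 706 mg/kg they ran from 4.74 to 5.53 with a median of 5.29, overlapping vehicle. Its differences from vehicle were -0.25 at 706 mg/kg (unadjusted p of 0.074 in limma), -0.14 at 70.6, -0.20 at 7.06 and -0.15 at 0.07 mg/kg, none past the adjusted threshold. The receptor genes Pdgfrb and Pdgfra, through which platelet-derived growth factor drives stellate cell division, stood at -0.14 and -0.13 at 70.6 mg/kg. Across the 16 measured genes of this role, 0 passed at any dose.

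Collagen maturation and turnover were represented by Lox and Timp1. Lox, the oxidase that starts cross-linking of collagen and elastin, had vehicle values from 6.70 to 8.80 with a median of 8.04. It ran from 6.09 to 8.76 with a median of 7.00 at 0.07 mg/kg and from 7.48 to 9.40 with a median of 8.62 at 70.6 mg/kg. Both dosed groups overlapped vehicle and each other. The differences were -0.66 (-1.52 to 0.20) and 0.67 (-0.19 to 1.53), and the slope over dose rank was 0.15 log2 per rank with an unadjusted p of 0.051 in limma (adjusted 0.998). Timp1 stood at 0.27 at 70.6 mg/kg and 0.16 at 7.06 mg/kg. Of 17 measured maturation genes and 13 turnover genes, 0 passed at any dose.

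The remaining named genes differed by less than their standard errors. At 706 mg/kg the 5 above it were Lum, Hgf, Fbn1 at 0.19, Col3a1 at 0.18 and Des at 0.13, and the other 14 lay between -0.074 and 0.25. At 70.6 mg/kg 14 genes lay between -0.054 and 0.42, and at 7.06 mg/kg, where Col1a1 stood at 0.16, 16 lay between -0.12 and 0.46. At 0.07 mg/kg, where Fbln1 stood at 0.11, 15 lay between -0.14 and 0.28. Collagen chains outside the named list with low unadjusted p-values were Col4a5 at 7.06 mg/kg (0.25 higher, p of 0.0069 in limma) and Col25a1, a dim membrane collagen, at 7.06 mg/kg (0.38) and 706 mg/kg (0.33). Col11a1, also dim, was at -0.17 at 706 mg/kg, and none of these passed the adjusted threshold.

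**Figure D2:**
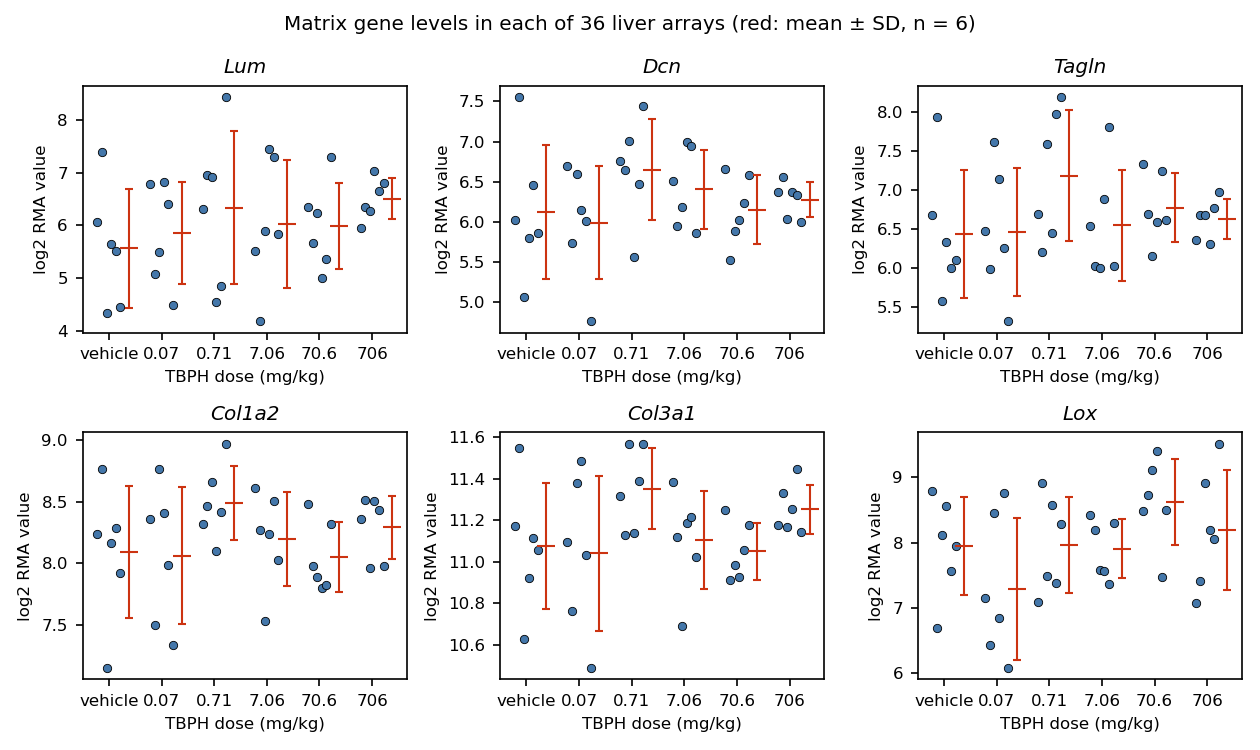
Log2 RMA value (y axis) of 6 matrix genes in each array, by TBPH dose in mg/kg (x axis); points are arrays, red bars mean ± SD with n = 6. The groups overlap in every panel, and the Lum values at 706 mg/kg (5.95 to 7.03) are closer together than those in vehicle (4.33 to 7.40).

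As over all genes, most of the variation of these genes lay between arrays of the same group, and Lum varied most. The range of Lum was known from earlier results when it was named. The within-group SD of Lum was 1.05 on the log2 scale, rank 13 of 14217 genes, and its values over all arrays ran from 4.18 to 8.44, a 19.2-fold range on the scale of the deposited values. Lox had an SD of 0.79 (rank 36) and a 10.8-fold range. Tagln followed at 0.68 (rank 54), Dcn at 0.58 (rank 92) and Mgp at 0.51 (rank 146). Of the 57 members 9 were above the 95th percentile of all genes, an SD of 0.29. The other 4 were Col6a3 at 0.44, Col1a2 at 0.40, Col8a2 at 0.34 and Col8a1 at 0.29. The median SD was 0.19 over members and 0.14 over all genes. The brightest fibrillar and matricellular genes were steadier, with 0.24 for Col3a1 and 0.18 for Sparc.

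The same arrays were high or low for many members at once. Replicate 6 at 0.07 mg/kg was the lowest of all 36 for 9 of the 31 bright members, and vehicle replicate 3 for 7. Replicate 4 at 0.07 mg/kg was the highest for 6 of the 31, namely Col18a1, Col4a1, Col4a2, Col6a1, Col6a2 and Pdgfrb. That array is 1 of the 2 with a high GAPDH control difference (0.33), described below, whose part in these values was not tested. The counts for these arrays were not set against those of all genes. In vehicle replicate 2, Lum was at 7.40, Tagln at 7.93 and Dcn at 7.55, each the highest of its group, while Lox was at 6.70, the lowest. After removal of each group's mean, the median correlation over the 465 pairs of bright members was 0.34, and 37.8% of pairs exceeded 0.5. Over all pairs of genes as bright, the median was 0.036 and 4.02% exceeded 0.5. Among all 57 members the median was 0.049 against 0.0026 over all genes, and among the 26 dim members it was 0.074.

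**Figure D3:**
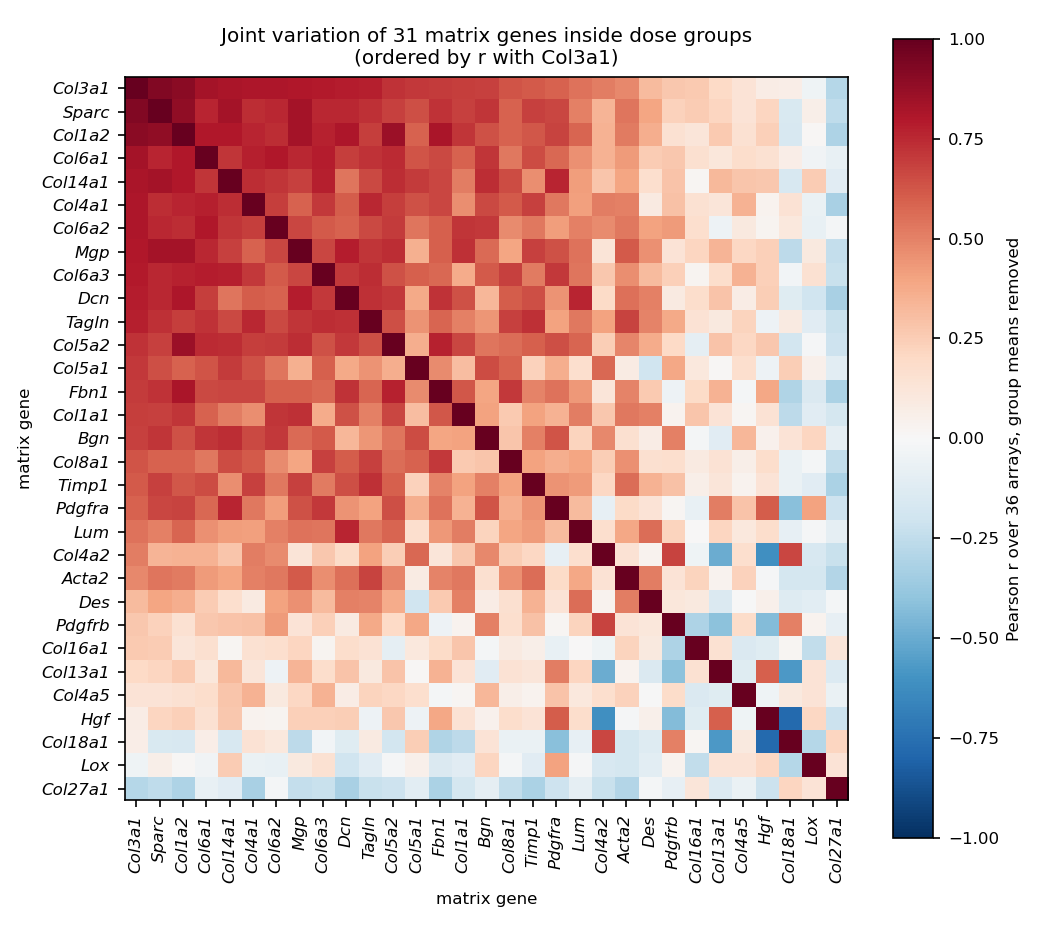
Pearson correlation over 36 arrays, after removal of group means, between the 31 matrix genes at or above median brightness (both axes, ordered by correlation with Col3a1); red is positive, blue negative. A block from Col3a1 (with Sparc at 0.92) to Lum (0.54) is red, while Hgf with Col18a1 (-0.77) is the darkest blue cell.

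Col3a1 served as the reference for this joint variation, since its probe set was the brightest of the collagens. Sparc, the matricellular protein osteonectin, had r = 0.92 (Spearman 0.92; permutation p of 1e-05 in 100000 draws within groups, the smallest they can give; adjusted over the 18 named genes 3.6e-05). Its r was 0.91 without the arrays farthest from the median, vehicle replicate 3 and 0.07 mg/kg replicate 6. In the single groups it ran from 0.85 to 0.98. Col1a2 had r = 0.90 with Col3a1 (Spearman 0.87) and 0.87 without those 2 arrays, with the same permutation p as Sparc.

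Mgp at 0.80, Dcn at 0.78, Tagln at 0.78, Fbn1 at 0.70, Col1a1 at 0.69 and Bgn at 0.69 came next. Timp1 stood at 0.61, Pdgfra at 0.59, Lum at 0.54 and Acta2 at 0.48. These passed the adjusted permutation threshold, the last with an adjusted p of 0.0066 and Lum with 0.0044. Without the 2 farthest arrays Lum had r = 0.46 and Acta2 0.51. Inside single groups of 6 arrays the tie was not always there. The lowest group value was 0.69 for Col1a2, 0.52 for Fbn1, 0.47 for Dcn, 0.12 for Pdgfra, 0.11 for Lum and 0.064 for Tagln. It was below 0 in 1 of the 6 groups for Mgp (-0.44), Timp1 (-0.30), Bgn (-0.28), Acta2 (-0.15) and Col1a1 (-0.029). By Pearson's r, 6 of the 18 did not pass, namely Des at 0.31, Postn at 0.31, Pdgfrb at 0.27, Fbln1 at 0.15, Hgf at 0.076 and Lox at -0.039. Des passed by Spearman's rho, 0.41 with an adjusted permutation p of 0.029. Among collagens outside the named list, Col6a1 stood at 0.84, Col8a2 at 0.83, Col14a1 at 0.81, Col4a1 at 0.81, Col6a2 at 0.80 and Col6a3 at 0.79, given as a description. Of the other 30 bright members 20 had r above 0.5 with Col3a1, as did 328 of the 14216 other genes.

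**Figure D4:**
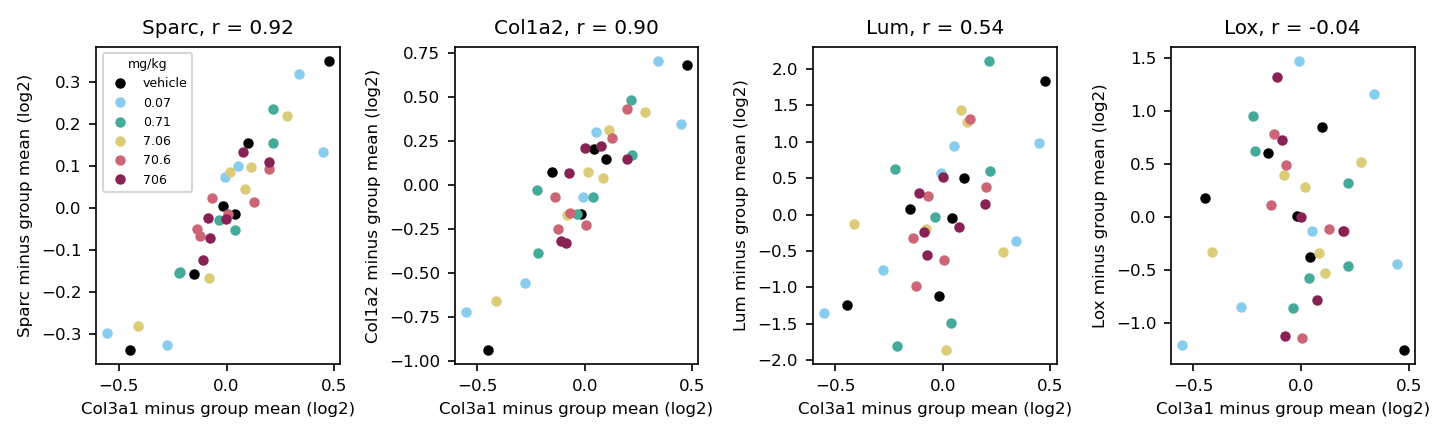
Col3a1 (x axis) against Sparc, Col1a2, Lum and Lox (y axes), each as log2 value minus its group mean in 36 arrays, coloured by TBPH dose in mg/kg. Sparc (r = 0.92) and Col1a2 (0.90) follow Col3a1 along a line in all colours, Lum (0.54) scatters around one, and Lox (-0.04) shows none.

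Lum was tied most closely to Dcn, at r = 0.76 (Spearman 0.68, permutation p adjusted over 18 genes 0.0002 and 0.0023), and at 0.74 without its own 2 farthest arrays. Col1a2 at 0.58, Des at 0.56, Mgp at 0.54, Col3a1 at 0.54, Tagln at 0.53, Col1a1 at 0.51, Sparc at 0.50, Fbn1 at 0.44 and Timp1 at 0.42 also passed by Pearson's r. By Spearman's rho only Dcn, Col1a2, Col3a1, Sparc and Des passed among these 18. Of those that passed by Pearson's r, only Col1a2 and Col3a1 stayed above 0 in all 6 groups, with lowest values of 0.080 and 0.11. The lowest group value of the others lay between -0.051 for Sparc and -0.86 for Timp1, and was -0.17 for Dcn. Bgn, the close relative of Dcn, had r = 0.22 with Lum and did not pass.

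Lox, with a within-group SD between those of Lum (1.05) and Dcn (0.58), varied apart from both, with r = -0.20 for Dcn. Its highest correlation among the named genes was 0.40, with Pdgfra, and it had -0.014 with Lum. Its 2 probe sets followed each other at r = 0.96, so the spread was shared by both readings of the transcript. Hgf also lay outside the block. It was opposed to Col18a1 at r = -0.77, the lowest of the 465 pairs of bright members, and to Col4a2 at -0.61. Hgf ran with Pdgfra at 0.61 and Col13a1 at 0.60. Col18a1 and Col4a2 themselves had r of 0.064 and 0.51 with Col3a1.

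The joint variation differed in size between groups by description. The median correlation of the 465 bright pairs was 0.63 in vehicle, 0.56 at 0.07 mg/kg, 0.41 at 0.71, 0.39 at 7.06, 0.21 at 70.6 and 0.13 at 706 mg/kg. Over all pairs of genes as bright it lay between 0.012 and 0.084 in the groups. The median SD of bright members was 0.25 in vehicle, 0.29 at 0.07 mg/kg, 0.19 at 0.71 and at 7.06, 0.22 at 70.6 and 0.18 at 706 mg/kg. For all genes as bright it was 0.12 in vehicle and at 706 mg/kg, with extremes of 0.11 and 0.15. Each value rests on 6 arrays, and the order of these values over dose was not tested. Not every bright member had a smaller SD at 706 mg/kg than in vehicle. Among those that did not, Lox had 0.75 in vehicle and 0.91 at 706 mg/kg, Col18a1 0.17 and 0.20, and Col16a1 0.079 and 0.19.

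**Figure D5:**
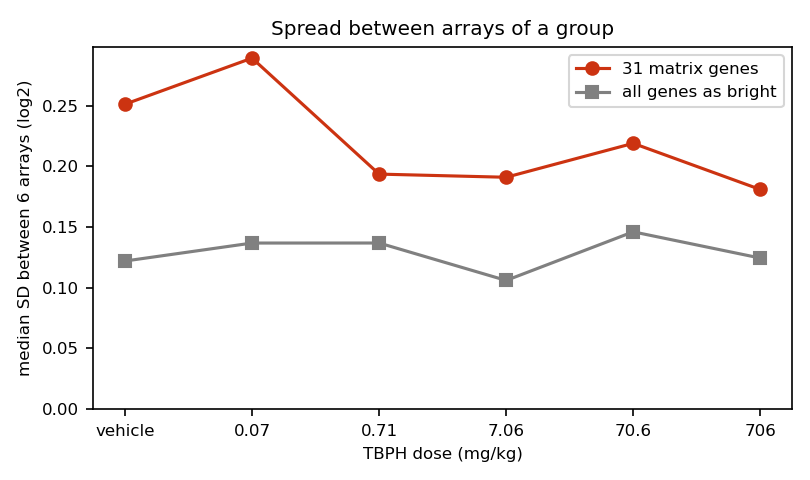
Median SD between the 6 arrays of a group in log2 units (y axis) by TBPH dose in mg/kg (x axis), for the 31 bright matrix genes (red) and all genes as bright (grey). The matrix genes lie above all genes in every group, from 0.18 at 706 mg/kg to 0.29 at 0.07 mg/kg.

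Markers of the cells that carry these genes were followed as well. The mean of 10 quiescent stellate cell markers that are no members had r = 0.63 with Col3a1 (Spearman 0.46, adjusted permutation p of 0.0056 and 0.035 over 12 lists). In single groups of arrays that r ran from -0.61 to 0.86. Marker by marker the tie was uneven, with a median of 0.29 over all 12 measured markers and 3 of them over 0.5. Colec11 stood at 0.69, Reln at 0.63 and Lhx2 at 0.54, and Lrat, the enzyme that stores vitamin A, at 0.45. Of the other bright ones Cygb stood at 0.39, Hand2 at 0.18 and Rgs5 at 0.025, and of the dim ones Ngfr at 0.029, Hhip at -0.0067 and Gfap at -0.28. The mean of all 12 measured markers, Des and Pdgfrb included, ran from 5.89 to 6.21 in vehicle and from 6.07 to 6.15 at 706 mg/kg.

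For other cell types some list means followed Col3a1, while most single markers did so weakly or not at all. The means of 7 portal fibroblast markers had r = 0.52, 9 of mesothelium and capsule 0.55, and 6 of fat 0.57, each with an adjusted permutation p of 0.0047. Their lowest values in a single group of arrays were -0.59, -0.052 and -0.031. In each of these lists 1 marker was over 0.5. In the portal fibroblast list it was Mfap4 at 0.75, with a list median of -0.044 and Fbln2 at 0.17, Entpd2 at 0.16, Gas6 at -0.044 and Eln at -0.061 among the bright ones. In the fat list it was Fabp4 at 0.74, itself below the median brightness, with a list median of 0.0086 and the bright Cidea and Cfd at 0.027 and 0.013. In the mesothelium and capsule list it was Krt8, also a hepatocyte keratin, at 0.62, with a list median of 0.32, Msln at 0.47 and Podxl at -0.31. The defining markers Thy1, Gli1, Wt1, Adipoq and Plin1, which stood between -0.22 and 0.027, were also below the median brightness. The portal fibroblast mean ran from 5.57 to 5.67 in vehicle and from 5.48 to 5.97 over the dosed groups, the highest at 0.71 mg/kg. The mesothelium and capsule mean ran from 6.80 to 7.40 in vehicle and from 6.85 to 7.44 over the dosed groups, and the fat mean from 5.12 to 5.54 and from 5.04 to 5.70. Sinusoidal endothelium stood at 0.34 (adjusted p of 0.043 by permutation, 0.075 for Spearman), with a marker median of 0.15. Lyve1 was at 0.53, the only one of 7 over 0.5. Lower were Pecam1 at 0.26, Stab2 at 0.25, Tek at 0.15, Stab1 at 0.084, Kdr at -0.050 and the dim Flt1 at -0.13. Smooth muscle, cholangiocyte, Kupffer cell, lymphocyte, erythroid, skeletal muscle and hepatocyte lists did not pass, with r between -0.24 and 0.24. The smooth muscle mean, at 0.17, held only the 4 markers that are no members. Tagln and Acta2, members left out of it, stood at 0.78 and 0.48. With Lum, 0 of the 12 lists passed, the nearest being mesothelium and capsule at 0.40 (adjusted permutation p of 0.33). The part of these cells in the joint variation was not tested.

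RNA quality, read as the difference between the 3′ and 5′ GAPDH control probe sets, had r = 0.15 with Col3a1 (permutation p of 0.45) and -0.078 with Lum (p of 0.64). It was highest in 70.6 mg/kg replicate 5 at 0.41 and 0.07 mg/kg replicate 4 at 0.33. Without these 2 arrays Sparc and Col3a1 had r = 0.94 and Lum and Col3a1 0.52. In the same 2 arrays Col18a1 was at 10.20 and 10.34, the highest of their groups, and Hgf at 4.94 and 4.91, the lowest. The part of RNA quality in the opposition of Hgf and Col18a1 was not tested.

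Among 9553 bright genes outside the members, those most like the mean of Col1a1, Col1a2 and Col3a1 were ranked by within-group Pearson correlation over 36 arrays. They were Smoc2 at 0.89, a matricellular relative of Sparc, Aoc3 at 0.85, Igfbp7 at 0.84, Vim at 0.83, the mesenchymal filament vimentin, and Ogn at 0.82, the proteoglycan osteoglycin. Ptn at 0.82, Aldh1a3 at 0.81, Lpl, Ltbp1 and Fstl1, each at 0.80, completed the first 10. The genes most like Lum were Msl3l2 at 0.65, Atxn3 at 0.63, Sparcl1 and Mospd2 at 0.62, and Atp8b2 at 0.59. All were lower than its correlation with Dcn.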

How the data were processed

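The authors deposited 1 log2 value per probe set and array, made with RMA (background correction, quantile normalization, summary per probe set) and the affy package per the submitters' processing notes; versions and a genome build are not given in the sources used here. Of 31099 probe sets, 57 controls were left out. A single symbol was given for 20826, several for 436 and none for 9780; 20758 were matched to current genes by Entrez ID, including all 57 members. Array medians ran from 5.06 to 5.14 and correlations between arrays from 0.987 to 0.996. Arrays give no depth, and their number limits the precision.

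Group means were fitted over all 36 arrays in limma 3.58.1 (R 4.3.3; 30 residual degrees of freedom), and tests were two-sided with Benjamini-Hochberg adjustment over 31042 probe sets. The design text names R/maanova at a false discovery rate of 5%, which was not installed. Correlations used values minus group means, with 100000 two-sided permutations within groups, adjusted within each family. The scripts were tested on simulated data. Genes named were the 20 listed, the 3 smallest p-values of each comparison, those of widest spread and the nearest 10 or 5 by correlation. Members and lists were chosen with earlier results of these data known. The same replicate numbers stand in all groups, but only 17 of 90 same-number pairs of arrays correlated above 0.1, so they were not treated as pairs. Promoter windows came from RefSeq (GRCr8). Plots used matplotlib 3.10.9 (Python 3.11.15).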

Additional observations from a re-analysis of the deposited data

Results flagged for a closer look

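In 198 groups of 6 arrays, for 33 genes, 10 held a highest or lowest value that stood apart from the other 5 by more than Dixon's 95% critical value; chance alone flags about 1 in 20 groups, or 9.9 here. Above the rest of their groups were Acta2 at 7.06 mg/kg in replicate 5 (6.14, next 5.53), Fbln1 at 7.06 mg/kg in replicate 2 (3.40, next 3.09) and Pdgfrb at 706 mg/kg in replicate 6 (6.03, next 5.67). So were Mgp at 0.71 mg/kg in replicate 6 (10.39, next 9.10), Postn in vehicle replicate 1 (3.55, next 2.96), Col16a1 at 0.07 mg/kg in replicate 2 (5.46, next 5.32) and Col5a2 at 706 mg/kg in replicate 4 (7.74, next 7.48). Below their groups were Fbn1 at 706 mg/kg in replicate 6 (6.38, next 6.77), Col13a1 at 706 mg/kg in replicate 1 (5.20, next 5.58) and Col14a1 in the same array (8.17, next 8.49).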

How the results depend on the processing

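Of 642 counts of calls under other settings, covering the arrays fitted, the moderation, array weights, brightness, normalization, threshold, probe set, dose scale and each array left out, 0 differed from 0. With the replicate number as a block, 0 of the 57 members passed at any dose, as without it, so there was no call for the block to change. Of the 36 arrays, 5 correlated best with their own number. Of 95 differences of the 19 named genes, 42 turned sign in some setting, the largest of them 0.25, and 0 passed in any. With 1 array left out, the member median ran from 0.017 to 0.076 at 706 mg/kg, -0.042 to 0.059 at 70.6, -0.033 to 0.023 at 7.06, 0.057 to 0.12 at 0.71 and -0.041 to 0.035 at 0.07 mg/kg. Leaving out 1 array gave 0.91 to 0.94 for Sparc with Col3a1, 0.47 to 0.58 for Lum with Col3a1, -0.21 to 0.096 for Lox with Col3a1, -0.79 to -0.74 for Hgf with Col18a1, and 0.31 to 0.35 for the median over bright pairs. The within-group SD of Lum ran from 0.98 to 1.07. At 6 arrays a group, the wide intervals of Lum, Lox and Tagln leave differences of their size undetectable, and dim chains near background cannot be read as absent.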
